A study of Mus musculus with 15 samples.

Results

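Skeletal muscle RNA of wild-type mice was sequenced as 2 numbered sets of libraries, and the comparison of these sets is described here. The first set held sedentary libraries 1 to 3 and exercise libraries 1 to 3, and the second set held sedentary libraries 4 to 6 and exercise libraries 4 to 6. The boundary follows the numbers in the labels, where the exercise libraries titled 4 to 6 carry the column names 6 to 8, and it coincides with the leading principal component seen in an earlier analysis of the same counts. These 12 libraries are all wild-type libraries of a series of 15, and the 3 libraries from CD47-KO animals were left out. All 12 libraries came from C57BL/6 animals aged 12 months on a normal diet that were starved overnight before the muscle was taken, and they differed by label only as sedentary or exercise. The labels name neither the muscle dissected, the form of exercise nor the time of day, and several RNA extraction reagents are listed without saying which library had which. No label names a batch, so a batch, the dissection, the cohort of animals and the biology of the animals cannot be told apart between the sets.

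Skeletal muscle is a mixture of fast and slow fibres with vessels, nerve branches, connective tissue and fat, so its bulk RNA carries all of these. Muscle genes also change quickly with the state of the animal. Immediate early genes, such as the Fos, Jun and Egr transcription factors, are transcribed within minutes of contraction, stress or tissue handling. Fasting and glucocorticoids raise a set of genes that restrain growth and break down protein, and the molecular clock of the muscle drives daily rhythms in metabolism through activators and repressors that switch each other on and off. In bulk RNA, fewer cells of a type and less RNA per cell cannot be told apart.

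Total counts ran from 54851831 to 69788530 in the first set and from 50928458 to 77628546 in the second set, which overlapped. Levels are given as CPM, read counts scaled to a common library size after TMM correction, and differences as log2 of the first over the second set with the standard error of the fit (SE, n = 6 libraries a set). The sarcomeric actin Acta1 was abundant in every library, at 34220 to 44610 CPM in the first and 31660 to 37890 CPM in the second set, as was muscle creatine kinase Ckm, at 15840 to 33500 and 26080 to 36490 CPM. The first principal component held 33.4% of the variance and placed the first set between 53.4 and 78.6 and the second set between -98.7 and -46.9. The boundary between the sets was drawn with earlier results of these counts known. Separation on this component is therefore a description and not independent support for the boundary. Sedentary 6 of the second set stood apart on the second component at 114.2, with sedentary 1 of the first set next at 46.1. Sedentary 6 also held the highest mitochondrial share (18.2% of counts) and the most negative slope on transcript length (-1.17). Where leaving out 1 library moved a count of called list members by more than 1.5 times, that library is named beside the count.

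**Figure D1:**
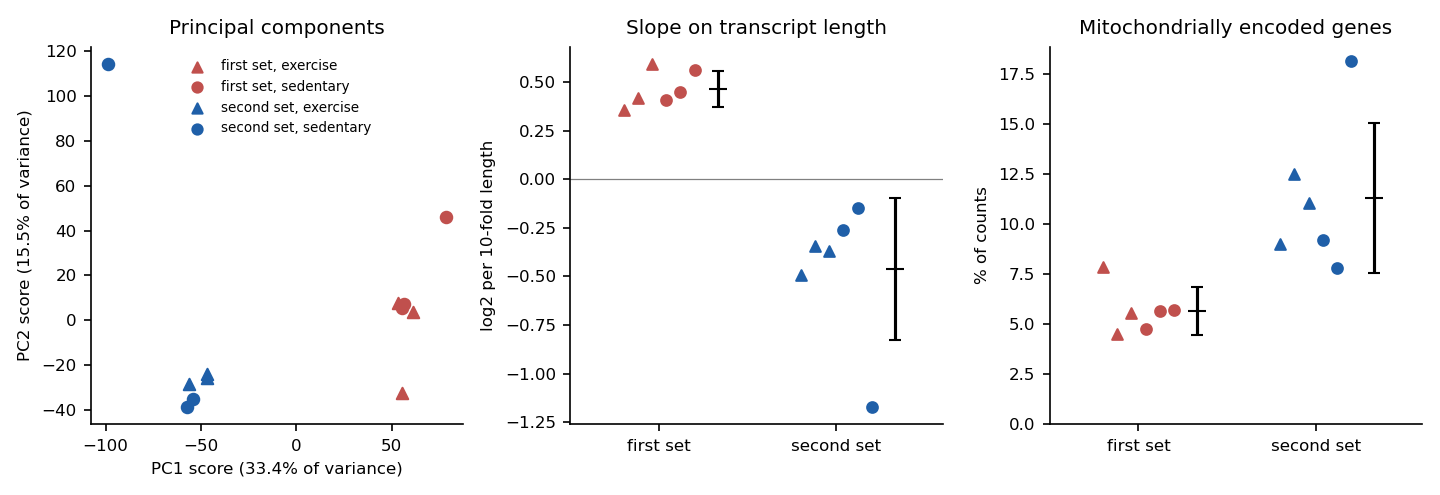
Scores on the first 2 principal components, slope of each library on transcript length (log2 per 10-fold length) and share of counts from mitochondrially encoded genes (percent), for 6 first-set and 6 second-set libraries; bars are mean and SD. The sets are separate on the first component, all 6 slopes of the first set are above 0 and all 6 of the second set below 0, and sedentary 6 is the lowest slope and the highest mitochondrial share.

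Of 17072 genes tested with edgeR's quasi-likelihood test, 2541 (14.9%) were higher and 2443 (14.3%) were lower in the first set at an adjusted p under 0.05 (Benjamini-Hochberg). A difference of at least 2-fold was found for 1269 higher genes (7.43%) and 851 lower genes (4.98%). The CPM of the 6 first-set libraries lay above all 6 second-set libraries for 1472 genes (8.62%) and below them for 1482 genes (8.68%). The difference was present in each group of mice. Among 15326 genes fitted in exercise and in sedentary libraries separately, 11767 (76.8%) had the same sign in both. Of 3489 genes called in exercise libraries alone and also fitted in sedentary ones, 3368 (96.5%) had the same sign in the sedentary libraries, where 131 were also called. The sedentary libraries alone gave 150 calls, 65 higher and 85 lower, against 3518 in the exercise libraries.

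The sets also differed by transcript length. Over 10327 genes with a mean above 1 log2 CPM, the log2 difference ran with transcript length across genes (Spearman's rho 0.463, a description over genes, which are not independent). The tenth of genes with the shortest transcripts (median 864 bases) had a median log2 difference of -0.58, and the tenth with the longest (median 8366 bases) one of 0.57. Exercise libraries alone gave -0.44 and 0.58 and sedentary libraries alone -0.72 and 0.52. Across genes the relation with GC content was weaker (rho 0.210), with -0.44 in the tenth of lowest GC content and 0.07 in the tenth of highest. Each library's slope on length was 0.464 ± 0.0923 log2 per 10-fold length (SD, n = 6) in the first and -0.464 ± 0.366 in the second set (exact permutation test within groups, two-sided p = 0.005, the smallest the 400 arrangements allow, adjusted p = 0.01 over 8 measures). The slope was chosen as a measure after seeing the data, so its p-value is no independent support for a difference between the sets. Many of the programmes below consist of short or of long genes, so several are also given after an offset. It removes the length trend from each library, an alternative also chosen after seeing the data. With that offset 12.8% of genes were called higher and 10.9% lower. Whether the trend comes from library preparation, RNA quality or the tissue was not tested.

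**Figure D2:**
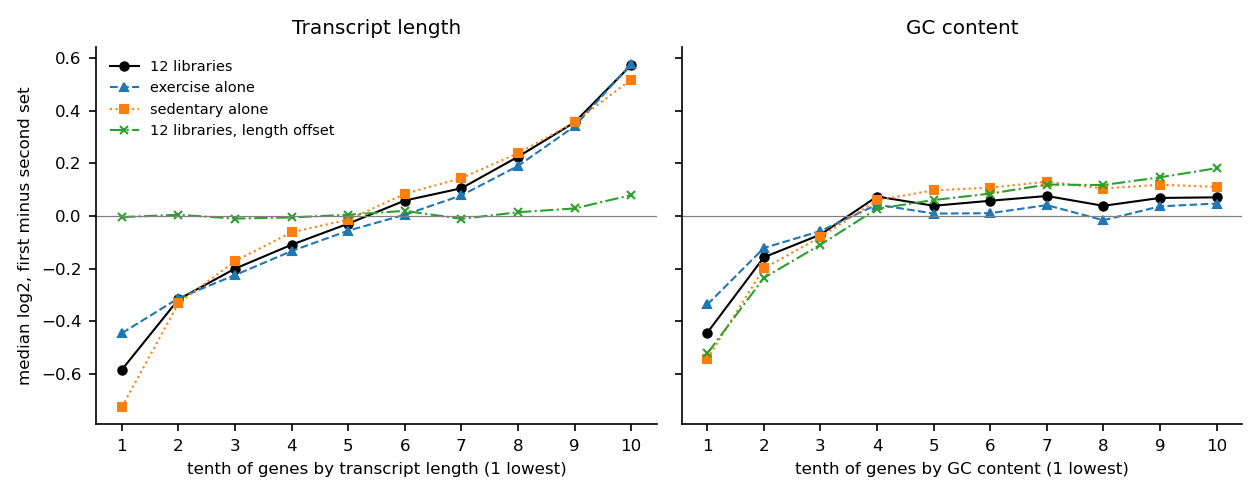
Median log2 difference, first minus second set, over 10 equal groups of genes ordered by transcript length (left) or GC content (right), for 12 libraries, exercise alone, sedentary alone and 12 libraries with the length offset. The medians climb from -0.58 to 0.57 over the length groups in 12 libraries and stay between -0.01 and 0.08 with the offset.

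Immediate early genes were higher in the first set. Of 28 tested, 20 (71.4%) were called higher and 0 lower, beside 14.9% and 14.3% of all genes. The median log2 difference was 1.25 beside 0.05 over all genes tested. Btg2, an antiproliferative gene induced by cyclic AMP and p53, had 39.5, 181 and 244 CPM in the first set (lowest, median and highest) and 10.5, 24.4 and 35.2 CPM in the second. The sets did not overlap, and sedentary 2 was the lowest of the first set by a wide margin. The log2 difference of Btg2 was 2.70 ± 0.37 (edgeR adjusted p = 0.000283). The promoter of Btg2 on chromosome 1 holds a perfect cyclic AMP response element (CRE, letters TGACGTCA, a palindrome, so both strands are covered), 166 bases before the start, and is printed 5′ to 3′ on the gene's strand with the CRE in capitals (RefSeq, GRCm38.p6, chr1:134079156-134079405, minus strand).
Btg2: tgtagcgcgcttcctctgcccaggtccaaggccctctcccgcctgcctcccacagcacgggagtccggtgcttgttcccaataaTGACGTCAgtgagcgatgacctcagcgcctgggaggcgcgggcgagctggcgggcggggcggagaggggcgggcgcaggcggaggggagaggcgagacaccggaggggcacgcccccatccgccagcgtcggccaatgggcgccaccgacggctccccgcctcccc
Among 32851 RefSeq promoters of the same 250 bases, 1.55% held a CRE. Of 23 immediate early genes with a promoter in the table, 3 held one, namely Btg2, the MAF family member Maff and the MAP kinase phosphatase Dusp1. A gene was counted if any of its promoters held a CRE, while the 1.55% is a share of single promoters. A match of letters is a description and not evidence of binding.

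Zfp36, which encodes tristetraprolin and destabilises cytokine mRNAs, had 67.2, 150 and 208 CPM in the first and 9.04, 25.2 and 58.6 CPM in the second set. Its sets did not overlap, with a log2 difference of 2.43 ± 0.27 (edgeR adjusted p = 7.23e-05). The Krüppel-like factor Klf6 had 56.3, 67.4 and 83.8 against 17.1, 26.3 and 27.6 CPM, again without overlap and with a log2 difference of 1.44 ± 0.15 (edgeR adjusted p = 5.41e-05). Its relative Klf4 ran from 17.1 to 66.8 CPM in the first set and from 11.5 to 20.4 CPM in the second, so the sets overlapped, with a log2 difference of 1.55 ± 0.26 (edgeR adjusted p = 0.000907). The AP-1 subunits Fos (2.83 ± 0.60, edgeR adjusted p = 0.00383), Fosb (3.81 ± 0.94, 0.00932) and Junb (2.20 ± 0.52, 0.00715) and the zinc finger factor Egr1 (2.44 ± 0.61, 0.00961) had the same direction, of which Fos, Fosb and Egr1 are named here after their values were seen. Not all members moved: Myc had a log2 difference of -0.13 (edgeR adjusted p = 0.792) and Ier3 one of -0.23 (0.444). Of the 28, 4 lay above and 0 below without overlap, beside 8.62% and 8.68% of all genes. The sets overlapped for the other members. With the length offset the list still had 20 higher and 0 lower, with a median of 1.32, and leaving out 1 library at a time gave 16 to 21 higher.

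Part of the genes raised by fasting, glucocorticoids and growth arrest were higher in the first set, although every mouse had been starved overnight. Of 31 tested, 12 were called higher and 3 lower (14.9% and 14.3% of all genes), with a median log2 difference of 0.34. Without overlap 8 lay above and 2 below, beside 8.62% and 8.68% of all genes. A positive difference was found for 18 of the 31. Ddit4, also called REDD1, inhibits mTORC1 and is induced by glucocorticoids. It had 258, 366 and 492 CPM in the first and 28.5, 79.5 and 103 CPM in the second set, with no overlap and a log2 difference of 2.39 ± 0.27 (edgeR adjusted p = 8.02e-05). Irs2, the insulin receptor substrate that rises when insulin is low, had 71.2, 150 and 300 CPM against 16.4, 35.6 and 51.5 CPM. Its sets were also apart, with a log2 difference of 2.15 ± 0.27 (edgeR adjusted p = 0.000149). The transcription factor Cebpd had 42.7, 45.1 and 59.1 against 16.2, 20.3 and 28.1 CPM and a log2 difference of 1.14 ± 0.17 (edgeR adjusted p = 0.000499). Named after their values were seen, the lower members were the ubiquitin ligase Fbxo30 (-1.17 ± 0.24, edgeR adjusted p = 0.00284), the translation repressor Eif4ebp1 (-0.83 ± 0.17, 0.00297) and the mitophagy receptor Bnip3 (-0.52 ± 0.15, 0.0172). The glucocorticoid target Tsc22d3 had a log2 difference of -0.43 ± 0.20 (edgeR adjusted p = 0.123). After the length offset 11 members were higher and 2 lower. The glucocorticoid- and zinc-responsive metallothioneins Mt1 and Mt2 were among the higher members. Both are counted again in the NRF2 and antioxidant list described further on. Mt1 had 37.9, 64.0 and 108 CPM in the first and 10.5, 15 and 38.8 CPM in the second set, with 1 library crossing over, and a log2 difference of 1.84 ± 0.34 (edgeR adjusted p = 0.0018). Mt2 had 11.9, 20.6 and 46.8 against 3.69, 7.99 and 10.5 CPM without overlap, and a log2 difference of 1.57 ± 0.32 (edgeR adjusted p = 0.0031).

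Clock genes differed in both directions, and the repressors of the loop were found on both sides. Of 17 core clock genes 4 were called higher and 3 lower, and of 14 clock output genes 4 higher and 2 lower, with medians of 0.13 and 0.25. These are counts of a few genes, to be set beside 14.9% higher and 14.3% lower of all genes, and the shares lower were close to the latter. Per1, a repressor of the loop that is also a direct glucocorticoid target and is counted in the fasting list too, had 138, 180 and 216 CPM in the first and 42.5, 54.9 and 78.7 CPM in the second set. It did not overlap, with a log2 difference of 1.6 ± 0.14 (edgeR adjusted p = 1.79e-05). Ciart, a repressor of the CLOCK and BMAL1 activators counted in both clock lists, had 8.82, 13.2 and 17.0 against 1.6, 4.64 and 5.72 CPM, and a log2 difference of 1.79 ± 0.25 (edgeR adjusted p = 0.000302). Per3, a further period gene, had 19.5, 22.9 and 50.9 against 7.67, 9.83 and 12.8 CPM and a log2 difference of 1.44 ± 0.24 (edgeR adjusted p = 0.000874). Neither Ciart nor Per3 overlapped between the sets.

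The nuclear receptor Nr1d2, or REV-ERB beta, which represses Arntl and Cry1, went the other way. It had 13.9, 21.3 and 23.8 CPM in the first and 41.1, 50.2 and 62.8 CPM in the second set, with no overlap and a log2 difference of -1.33 ± 0.16 (edgeR adjusted p = 0.000124). Named after their values were seen, Cry1 was also lower (-0.56 ± 0.15, edgeR adjusted p = 0.0143), and Per2 was higher (0.61 ± 0.18, 0.022). The activator Arntl, which encodes BMAL1, had a log2 difference of -0.48 ± 0.30 (edgeR adjusted p = 0.253) and Clock one of -0.74 ± 0.29 (0.0684). Among output genes the mitotic kinase Wee1 had 3.60, 4.87 and 7.61 against 1.5, 1.98 and 3.06 CPM, without overlap and with a log2 difference of 1.31 ± 0.23 (edgeR adjusted p = 0.00126). The myogenic factor Myod1 was lower (-0.93 ± 0.20, edgeR adjusted p = 0.00402), as was the titin cap Tcap (-0.78 ± 0.23, 0.0219), whose call was lost without exercise 4 or sedentary 2. The output list had 2 higher without exercise 5, exercise 6 or sedentary 2, and 1 lower without exercise 4 or sedentary 2. With the length offset the core clock list had 4 higher and 4 lower, and the output list 4 and 1. Because the labels give no time of day, the hour of sampling and the set cannot be told apart.

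The promoters of 4 clock genes show the elements through which the loop acts, in capitals, 5′ to 3′ on the gene's strand and 250 bases before the RefSeq start (GRCm38.p6). The E-box CACGTG, a palindrome bound by CLOCK and BMAL1, lies 116, 58 and 44 bases before the start of Ciart (chr3:95882229-95882478, minus strand), 166 bases before that of Per1 (chr11:69098699-69098948, plus strand) and 60 bases before that of Cry1 (chr10:85185055-85185304, minus strand). The D-box TTATGTAA, searched on both strands and bound by DBP, TEF and HLF, lies 205 and 158 bases before the start of Per3 (chr4:151044666-151044915, minus strand).
Ciart: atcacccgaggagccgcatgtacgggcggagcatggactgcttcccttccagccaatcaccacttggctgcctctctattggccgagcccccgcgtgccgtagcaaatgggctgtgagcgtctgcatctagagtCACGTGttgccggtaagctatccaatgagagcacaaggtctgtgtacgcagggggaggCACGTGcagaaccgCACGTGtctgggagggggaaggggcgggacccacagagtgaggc
Per1: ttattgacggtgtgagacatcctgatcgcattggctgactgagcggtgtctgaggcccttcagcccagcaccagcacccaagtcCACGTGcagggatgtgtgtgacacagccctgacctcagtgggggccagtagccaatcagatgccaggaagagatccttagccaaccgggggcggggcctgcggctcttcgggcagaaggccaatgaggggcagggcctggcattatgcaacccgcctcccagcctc
Cry1: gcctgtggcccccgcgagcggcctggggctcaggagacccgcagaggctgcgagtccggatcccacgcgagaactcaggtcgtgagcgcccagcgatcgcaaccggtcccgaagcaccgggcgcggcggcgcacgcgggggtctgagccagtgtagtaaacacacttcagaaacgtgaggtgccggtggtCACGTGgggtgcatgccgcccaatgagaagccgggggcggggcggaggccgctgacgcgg
Per3: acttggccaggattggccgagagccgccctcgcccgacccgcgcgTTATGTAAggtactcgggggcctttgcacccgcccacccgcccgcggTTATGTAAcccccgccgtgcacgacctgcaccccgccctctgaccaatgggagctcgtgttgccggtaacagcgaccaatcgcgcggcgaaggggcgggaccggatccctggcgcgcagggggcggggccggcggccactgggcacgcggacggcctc
E-boxes were held by 6.02% and D-boxes by 0.819% of the 32851 promoters. Of 13 core clock genes with a promoter in the table, 4 held an E-box (Per1, Cry1, Bhlhe41, Ciart) and 1 a D-box (Per3). A gene was counted if any of its promoters held the element, so these counts and the shares of single promoters are unlike measures. Sharing an E-box did not go with a shared direction, since Per1 and Ciart were higher, Cry1 lower, and Bhlhe41 had a log2 difference of 0.10 (edgeR adjusted p = 0.653). Letters that match say nothing of binding in these muscles.

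**Figure D3:**
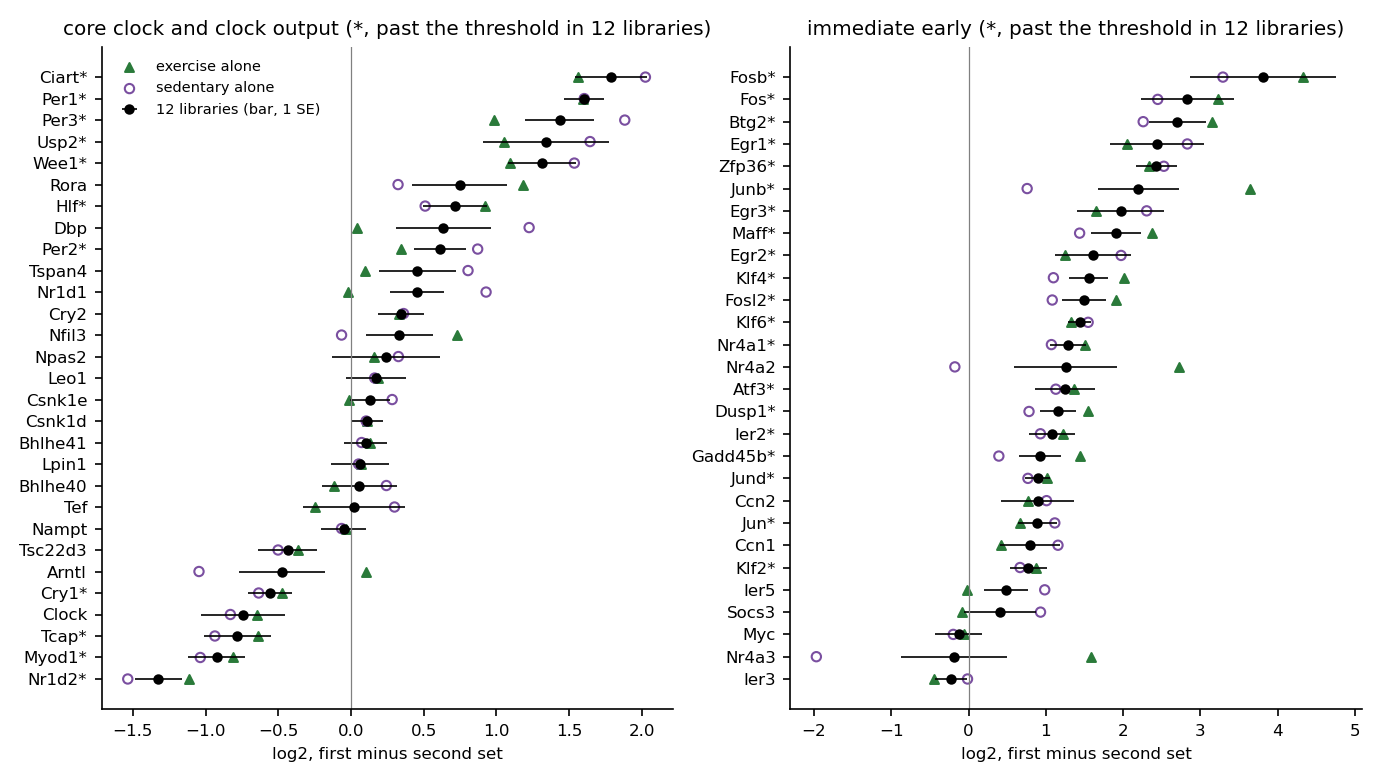
Log2 difference, first minus second set, of clock genes (left) and immediate early genes (right) in 12 libraries (black, bar 1 SE), in exercise libraries alone (triangles) and in sedentary libraries alone (open circles); asterisks mark genes past the threshold. Period genes and Ciart are to the right of 0 and Nr1d2 and Cry1 to the left in both groups, and 20 of 28 immediate early genes carry an asterisk on the right.

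Insulin signalling and lipid synthesis were higher in the first set for part of their members. Of 25 insulin and AMPK signalling genes, 7 were higher and 2 lower (median 0.29). These shares were 28.0% and 8.0%, beside 14.9% and 14.3% of all genes. The receptor of IGF1, Igf1r, had 24.1, 28.7 and 31.3 CPM in the first and 6.73, 9.15 and 11.6 CPM in the second set. Its sets were apart, with a log2 difference of 1.62 ± 0.15 (edgeR adjusted p = 2.87e-05). The insulin receptor Insr had 20.9, 66.3 and 77.3 against 8.86, 13.7 and 21.6 CPM, overlapping only through sedentary 2, and a log2 difference of 2.09 ± 0.30 (edgeR adjusted p = 0.000351). The AMPK catalytic subunit Prkaa1 was lower, with 3.13, 3.97 and 4.97 against 6.73, 8.05 and 8.77 CPM, no overlap and a log2 difference of -0.98 ± 0.14 (edgeR adjusted p = 0.000356). These are long genes (list median 6266 bases). With the length offset 4 of 25 stayed higher by count and 2 lower, with a median of 0.03. The shares of all genes with that offset were 12.8% and 10.9%, so the list was then close to them. Leaving out exercise 3 gave 4 higher.

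Of 23 genes of sterol and fatty acid synthesis, 9 (39.1%) were called higher and 0 lower, beside 14.9% and 14.3% of all genes. The median log2 difference was 0.58. Fatty acid synthase Fasn had 20.1, 25.8 and 31.7 CPM in the first and 6.19, 10.8 and 15.9 CPM in the second set. No library overlapped, and the log2 difference was 1.27 ± 0.21 (edgeR adjusted p = 0.000895). The sterol enzymes Dhcr7 (0.74 ± 0.15, edgeR adjusted p = 0.00297) and Lss (1.13 ± 0.24, 0.00402) and the carboxylase Acaca (0.60 ± 0.13, 0.00368) also lay apart. Acaca had a log2 difference of 0.08 with the length offset and -0.03 with a GC and length offset. After the length offset 7 of the list were higher and the median was 0.21, and without sedentary 6 there was 1 lower. Among regulators of mitochondrial biogenesis, 2 of 23 were higher (8.70%) and 5 lower (21.7%). The share higher was below the 14.9% of all genes. The higher ones were the lipid-sensing receptor Ppara (2.30 ± 0.41, edgeR adjusted p = 0.00142) and the coactivator Ppargc1b (1.80 ± 0.22, 0.000125), both without overlap. The mitophagy kinase Pink1 (-0.71 ± 0.14, edgeR adjusted p = 0.00205) and the deacetylase Sirt1 (-0.93 ± 0.19, 0.00284) were lower. The number of lower ones was 3 without exercise 1, 2, 5 or 6 or sedentary 2 or 4.

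Genes of the extracellular matrix were higher in the first set. Of 30 collagen and matrix genes, 20 were called higher (66.7%) and 1 lower (3.33%), beside 14.9% and 14.3% of all genes. The median log2 difference was 0.82. Col1a1, a chain of type I collagen (chr11:94936224-94953042), had 46.9, 62.9 and 329 CPM in the first and 8.12, 12.1 and 16.4 CPM in the second set. The sets did not overlap, and sedentary 1 was far above the rest. Its log2 difference was 3.09 ± 0.48 (edgeR adjusted p = 0.00059). Col1a2, its partner chain, had 82.6, 122 and 443 against 15, 17.7 and 27.2 CPM, without overlap and with a log2 difference of 3.04 ± 0.41 (edgeR adjusted p = 0.00024). Col3a1, the type III chain of soft connective tissue, had 39.9, 65.2 and 142 against 15.3, 17.7 and 30.8 CPM and a log2 difference of 1.80 ± 0.29 (edgeR adjusted p = 0.000767). Timp3, a matrix-bound inhibitor of metalloproteinases, had 174, 184 and 247 against 87.5, 101 and 150 CPM and a log2 difference of 0.88 ± 0.14 (edgeR adjusted p = 0.000783). After the length offset 12 were higher and 0 lower (median 0.65), and leaving out 1 library gave 14 to 22 higher. The lower gene lost its call without exercise 1, 2, 5 or 6 or sedentary 2, 3 or 4.

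Tendon and cartilage markers differed by the largest median of the 50 lists. Of 18 tested, 14 were called higher (77.8%) and 0 lower, beside 14.9% and 14.3% of all genes. The median was 2.91 (3.04 with the gene at 0 in the second set put at its bound). With the length offset 12 were higher and 0 lower (median 2.83). Sox9, a transcription factor of cartilage and tendon attachment, had 4.04, 8.45 and 18 CPM in the first and 0.208, 1.55 and 1.87 CPM in the second set. It did not overlap, with a log2 difference of 2.84 ± 0.41 (edgeR adjusted p = 0.000399). Kera, a small proteoglycan, had 0.077, 1.06 and 3.73 against 0, 0.0786 and 0.166 CPM and a log2 difference of 3.92 ± 0.87 (edgeR adjusted p = 0.00505). Col12a1, a fibril-associated collagen of tendon, had 0.501, 3.44 and 17.6 against 0, 0.415 and 0.769 CPM and a log2 difference of 3.59 ± 0.83 (edgeR adjusted p = 0.0063). Col2a1, the cartilage collagen, was at 0 in all 6 second-set libraries and at 0.0385 to 0.494 CPM in the first, at least 32.5-fold higher against a floor of 3 counts over the second set. The summed level of the list was 71.0, 276 and 931 CPM in the first set, highest in sedentary 1, and 53.1, 64.3 and 120 CPM in the second. The call rests in part on sedentary 1, since 9 members were higher without it, and in the exercise libraries alone 1 was higher and the median was 2.29. How much of the matrix difference goes with tendon in the sample was not tested.

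Some nerve, fat and serum protein markers were also higher, a minority of each list. The shares of all genes to set beside these counts are 14.9% higher and 14.3% lower. Of 17 Schwann cell and nerve markers 7 were higher and 1 lower (median 0.46). Periaxin, Prx, a scaffold of myelinating Schwann cells, had 8.03, 17.5 and 31.2 CPM in the first and 4.18, 5.39 and 9.02 CPM in the second set. The sets overlapped slightly, and the log2 difference was 1.55 ± 0.26 (edgeR adjusted p = 0.00104). The axonal growth protein Stmn2 was lower (-1.79 ± 0.34, edgeR adjusted p = 0.00204). Summed nerve markers were 83.9, 146 and 298 against 52.8, 61.7 and 86.4 CPM. Of 15 adipocyte markers 5 were higher and 1 lower (median 0.72). The lipid droplet coat Plin4 had 664, 702 and 876 against 256, 451 and 599 CPM without overlap, with a log2 difference of 0.72 ± 0.18 (edgeR adjusted p = 0.0105). The droplet coat Plin1 (2.76 ± 0.69, edgeR adjusted p = 0.00991) and the adipokines Cfd (2.62 ± 0.71, 0.0144) and Adipoq (2.10 ± 0.66, 0.03) overlapped between the sets. The call of Adipoq was lost without exercise 4, 5 or 6, and the list had 3 higher without exercise 4 or 6. The number lower was 0 without exercise 2 to 6 or sedentary 2, 3 or 6, and 2 without sedentary 4 or 5. The summed adipocyte level was 1680 to 2665 CPM in the first and 1669 to 2212 CPM in the second set.

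Hepatocyte and serum protein markers, which muscle fibres are not known for, were low in both sets yet differed. Of 15 tested, 5 were higher (33.3%) and 0 lower, beside 14.9% and 14.3% of all genes (median 1.31). The apolipoprotein Apoa1 (chr9:46228580-46230466) had 4.77, 8.33 and 11.4 CPM in the first set and 0 in 5 of 6 second-set libraries, with 0.449 CPM in sedentary 5. Its log2 difference was 6.56 ± 0.86 (edgeR adjusted p = 0.00022), a value that depends on the prior count. The liver cytochrome Cyp2e1 had 6.75, 13.6 and 24.7 against 0.166, 0.888 and 1.98 CPM without overlap, with a log2 difference of 3.88 ± 0.60 (edgeR adjusted p = 0.000596). Haptoglobin Hp (2.72 ± 0.67, edgeR adjusted p = 0.00863) and transferrin Trf (1.31 ± 0.29, 0.00457) were higher as well. The list summed to 33, 64.7 and 79.6 CPM in the first and 7.24, 9.99 and 32.9 CPM in the second set. Both the nerve and the serum protein counts were little changed by the length offset (6 higher and 1 lower, and 5 and 0). Where these transcripts came from was not tested.

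Vascular and resident cell markers gave few calls in some lists and more in others. The shares of all genes to set beside them are 14.9% higher and 14.3% lower, and the endothelial, macrophage and interferon lists were close to these or below them. Of 20 endothelial markers 4 were higher and 2 lower, and without sedentary 6 the number higher was 10. The number lower was 1 with any of exercise 1, 2, 3, 5 and 6 or sedentary 2, 3 and 6 left out. The vascular receptors Flt1 (1.25 ± 0.18, edgeR adjusted p = 0.00035) and Ptprb (1.24 ± 0.15, 0.000127) were higher without overlap, while the sialomucin Emcn was lower (-1.06 ± 0.29, 0.0146). Of 16 mural and smooth muscle markers 6 were higher, among them smooth muscle myosin Myh11 (1.17 ± 0.20, edgeR adjusted p = 0.00104), and 3 lower, among them the pericyte regulator Rgs5 (-0.71 ± 0.21, 0.0218) and Mustn1 (-1.47 ± 0.28, 0.00197). The call of Rgs5 was lost without exercise 2 or sedentary 1. The mural list had 2 higher without exercise 4 and 3 higher with any of exercise 1, 2 and 5 or sedentary 1 to 5 left out. The summed mural level went the other way from these counts, at 4473 to 4999 CPM in the first and 5278 to 6912 CPM in the second set, without overlap. This list shares desmin, Des, with the giant scaffold list, so the sum is not a measure of mural cells alone. How much of it came from muscle fibres was not tested. With the length offset 2 mural markers were higher and 3 lower. Of 14 fibroblast markers 1 was higher, the collagen Col14a1 (2.22 ± 0.39, edgeR adjusted p = 0.00122), and 4 lower, among them Smoc2 (-0.58 ± 0.15, 0.0131), and 2 were lower without exercise 2 or 5 or sedentary 2 or 3. The fibroblast sum was 273 to 728 CPM in the first and 611 to 835 CPM in the second set, which overlapped. Of 16 spindle and satellite cell markers 4 were higher and 1 lower, among them the heparan sulphate proteoglycan Sdc4 (0.97 ± 0.16, edgeR adjusted p = 0.000803). The number higher was 1 without exercise 5 or 6 and 2 without exercise 1 or sedentary 1 or 5. Of 17 macrophage markers 2 were higher and 0 lower (1 higher with any of exercise 1 or 3 to 6 or sedentary 1, 5 and 6 left out), and of 21 interferon response genes 2 were higher and 0 lower (4 higher without sedentary 6, and 1 with any other library but exercise 5 and sedentary 3 left out). Of 17 cell cycle genes 4 were lower, among them the mitotic kinase Aurka (-1.04 ± 0.20, edgeR adjusted p = 0.0021), and 2 were lower without exercise 3 or 5 or sedentary 1, 3 or 5.

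Oxidative phosphorylation was lower in the first set, in both genomes. The counts are to be set beside 14.3% lower and 14.9% higher of all genes. Of 15 mitochondrially encoded genes 11 were lower and 0 higher, with a median log2 difference of -1.03. Of 36 nuclear complex I genes 28 were lower and 0 higher (median -0.70), and of 40 genes of complexes II to V 26 were lower and 0 higher (median -0.72). mt-Nd4, a mitochondrially encoded subunit of complex I, had 1212, 1778 and 2526 CPM in the first and 4161, 5010 and 10600 CPM in the second set. The sets were apart, with sedentary 6 the highest, and the log2 difference was -1.74 ± 0.26 (edgeR adjusted p = 0.000504). mt-Atp6, a subunit of the ATP synthase, had 152, 230 and 325 against 973, 1243 and 3290 CPM and a log2 difference of -2.75 ± 0.32 (edgeR adjusted p = 0.000106). mt-Cytb of complex III (-1.39 ± 0.28, edgeR adjusted p = 0.00296) and mt-Nd3 of complex I (-1.95 ± 0.40, 0.003) lay apart too. Among all counts the mitochondrial share was 5.66% ± 1.19 (SD, n = 6) against 11.3% ± 3.76 (exact permutation test within groups, two-sided p = 0.005, adjusted p = 0.01). The boundary was drawn with earlier results of these counts known, so this p-value is no independent support for a difference between the sets.

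The nuclear complex I subunit Ndufv2, part of the electron input module (chr17:66078638-66101559), had 135, 138 and 180 CPM in the first and 278, 358 and 398 CPM in the second set. Exercise 1 was the highest of the first set, the sets were apart, and the log2 difference was -1.29 ± 0.13 (edgeR adjusted p = 4.69e-05). Ndufb11 had a log2 difference of -1 ± 0.17 (edgeR adjusted p = 0.000969), Ndufc2 of -0.84 ± 0.11 (0.000166) and Ndufs4 of -0.67 ± 0.11 (0.00112). The cytochrome oxidase subunit Cox7b had 84.5, 93.3 and 126 against 210, 263 and 349 CPM and a log2 difference of -1.47 ± 0.15 (edgeR adjusted p = 5.86e-05). The Rieske protein Uqcrfs1 of complex III (-0.91 ± 0.13, edgeR adjusted p = 0.000459), Atp5j of the ATP synthase (-0.87 ± 0.15, 0.00122) and the oxidase subunit Cox7c (-0.97 ± 0.16, 0.000887) did not overlap either. Transcripts of these lists are short (medians of 955, 1026 and 1231 bases). After the length offset 7 mitochondrial genes, 10 complex I genes and 14 genes of complexes II to V were lower, with medians of -0.75, -0.21 and -0.31. With a GC and length offset 5 mitochondrially encoded genes were higher and 2 lower (median -0.01), mt-Nd3 had a log2 difference of 0.02 and Cox7c one of 0.27. Complex I had 17 lower genes without sedentary 3 and 18 without sedentary 2.

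Fuel oxidation genes upstream of the respiratory chain were lower for part of their members. Over all genes 14.3% were lower and 14.9% higher. Of 22 genes of the tricarboxylic acid cycle and pyruvate entry 13 were lower and 0 higher (median -0.53), and 10 were lower with the length offset. Without sedentary 1 there was 1 higher. Fumarase Fh1 had 112, 119 and 139 CPM in the first and 155, 250 and 297 CPM in the second set, without overlap and with a log2 difference of -0.93 ± 0.14 (edgeR adjusted p = 0.000436). The mitochondrial pyruvate carrier Mpc1 (-1.21 ± 0.20, edgeR adjusted p = 0.000963), succinyl-CoA ligase Suclg1 (-0.75 ± 0.11, 0.00039) and pyruvate dehydrogenase Pdhb (-0.60 ± 0.12, 0.00287) also lay apart. Of 30 fatty acid oxidation genes 8 were lower and 0 higher (median -0.42), and 8 were lower with the length offset. Acot2, a mitochondrial acyl-CoA thioesterase, had 16.2, 23.2 and 35.5 against 45.9, 69.8 and 93.8 CPM and a log2 difference of -1.46 ± 0.23 (edgeR adjusted p = 0.000695). Malonyl-CoA decarboxylase Mlycd (-0.74 ± 0.14, edgeR adjusted p = 0.00225) and the lipase inhibitor Angptl4 (-1.06 ± 0.23, 0.00398) were lower. Without sedentary 1 or sedentary 6 the number of lower oxidation genes was 13, and in exercise libraries alone it was 16, with a median of -0.77. In sedentary libraries alone, which gave few calls over all genes, 0 oxidation genes were lower and the median was -0.02. Of 27 glycolysis and glycogen genes 2 were higher (7.41%) and 1 lower (3.70%), both below the shares of all genes. Without sedentary 6 there were 4 lower. Hexokinase Hk2 had 322, 476 and 529 against 195, 277 and 322 CPM and a log2 difference of 0.69 ± 0.15 (edgeR adjusted p = 0.00439), while the glycogen-targeting phosphatase subunit Ppp1r3a was lower (-1.30 ± 0.35, 0.0146).

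Ribosomal protein genes were lower in the first set. Of 76 tested, 48 were called lower (63.2%) and 0 higher, beside 14.3% and 14.9% of all genes. The median log2 difference was -0.69, and 52 lay below without overlap beside 8.68% of all genes. Their share of counts was 0.960% ± 0.125 (SD, n = 6) in the first and 1.45% ± 0.366 in the second set (exact permutation test within groups, two-sided p = 0.005, adjusted p = 0.01). The limit given for the p-value of the mitochondrial share holds here too. Rps6, the ribosomal protein phosphorylated downstream of mTORC1, had 144, 152 and 161 CPM in the first and 259, 269 and 391 CPM in the second set. The first set was tight, sedentary 6 was the highest of the second, and the log2 difference was -0.93 ± 0.13 (edgeR adjusted p = 0.000311). Rps12 had 22, 34.4 and 38.5 against 65.6, 77.8 and 190 CPM and a log2 difference of -1.49 ± 0.21 (edgeR adjusted p = 0.000352). Rpl17 (-2.40 ± 0.26, edgeR adjusted p = 6.49e-05) and Rpl21 (-2.06 ± 0.27, 0.000211) had the largest differences of the list, but both have near-identical copies in the genome, so their counts are uncertain. Ribosomal protein transcripts are short (median 1100 bases), and with the length offset 18 were lower and 2 higher (median -0.25). Leaving out 1 library gave 34 to 56 lower, and 1 higher without sedentary 6.

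More translation and splicing factors were lower than higher, and the share higher was close to that of all genes (14.9%, beside 14.3% lower). Of 29 translation factors 5 were higher and 10 lower, and with the length offset 4 and 6. The initiation factor Eif5b was higher (0.99 ± 0.16, edgeR adjusted p = 0.000691), and Eef1b2 (-0.66 ± 0.11, 0.000915), Eif3h (-0.59 ± 0.10, 0.00132) and Eif1 (-0.65 ± 0.13, 0.00259) were lower. Without exercise 4, exercise 6 or sedentary 3 there were 3 higher translation factors. Of 32 splicing factors 5 were higher and 8 lower. With the length offset 6 were higher and 11 lower. A GC and length offset gave 4 higher and 3 lower, so the order of the counts was then reversed. The related SR proteins Srsf5 and Srsf7 moved apart: Srsf5 had 57.1, 66.9 and 79.8 CPM in the first and 29.8, 35.2 and 43.1 CPM in the second set (0.91 ± 0.13, edgeR adjusted p = 0.000302), and Srsf7 had 11.4, 12.1 and 13.1 against 19.3, 20.9 and 27.7 CPM (-0.88 ± 0.12, 0.000272). Neither overlapped between the sets. With any of exercise 1, 3, 5 and 6 or sedentary 2 and 4 left out, 3 splicing factors were higher.

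Proteasome genes were lower and nearly uniform within a set. Of 33 tested, 22 were lower (66.7%) and 1 higher (3.03%), beside 14.3% and 14.9% of all genes. The median was -0.48, and 21 lay below without overlap, beside 8.68% of all genes. Psma1, a subunit of the proteasome's outer ring (chr7:114264606-114276118), had 34.4, 38.7 and 39.9 CPM in the first and 67.2, 82.1 and 90.5 CPM in the second set. The log2 difference was -1.08 ± 0.11 (edgeR adjusted p = 4.5e-05). Its ring partners Psma2 (-0.86 ± 0.09, edgeR adjusted p = 6.84e-05), Psma6 (-0.81 ± 0.10, 0.000164) and Psma5 (-0.68 ± 0.09, 0.000313) had the same pattern. After the length offset 11 were lower and 2 higher (median -0.24). Of 25 autophagy and lysosome genes 1 was higher (4.0%) and 4 lower (16.0%), the latter close to the 14.3% of all genes. There were 10 lower without sedentary 6 and 2 without exercise 4 or sedentary 1 or 2. The higher one lost its call without exercise 1, 3, 4 or 5 or sedentary 3. The autophagy receptor Sqstm1 had 623, 797 and 857 against 977, 1089 and 1197 CPM and a log2 difference of -0.49 ± 0.13 (edgeR adjusted p = 0.012).

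Many antioxidant genes were lower, and fewer of the other stress genes. Of 23 NRF2 and antioxidant genes 12 were lower and 2 higher (median -0.48), the higher ones being Mt1 and Mt2, and with the length offset 5 were lower and 2 higher. Mitochondrial superoxide dismutase Sod2 had 148, 151 and 193 CPM in the first and 205, 253 and 315 CPM in the second set, without overlap and with a log2 difference of -0.70 ± 0.12 (edgeR adjusted p = 0.00105). Glutathione reductase Gsr was also lower (-0.66 ± 0.13, edgeR adjusted p = 0.00255). Of 24 endoplasmic reticulum stress genes 7 were lower and 2 higher, among them the chaperone Canx (-0.70 ± 0.09, edgeR adjusted p = 0.000183) and the transcription factor Atf4 (-0.71 ± 0.14, 0.00224). None of that list was higher without exercise 1, 3 or 5 or sedentary 2 or 3, and 1 was without any other library but sedentary 6. Of 22 heat shock chaperones 1 was higher and 3 lower, no more than the shares of all genes (14.9% and 14.3%). The constitutive chaperone Hspa8 had 499, 647 and 792 against 1059, 1213 and 1428 CPM, without overlap, and a log2 difference of -0.92 ± 0.15 (edgeR adjusted p = 0.000812). Hsph1 was higher (0.46 ± 0.13, edgeR adjusted p = 0.0179), Hspb8 lower (-0.47 ± 0.13, 0.0203, lost without exercise 4) and Hspe1 lower (-0.44 ± 0.14, 0.0271). The Hspe1 call was lost without exercise 2, 3, 5 or 6 or sedentary 2 or 3. Without sedentary 6 the number of lower chaperones was 5.

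**Figure D4:**
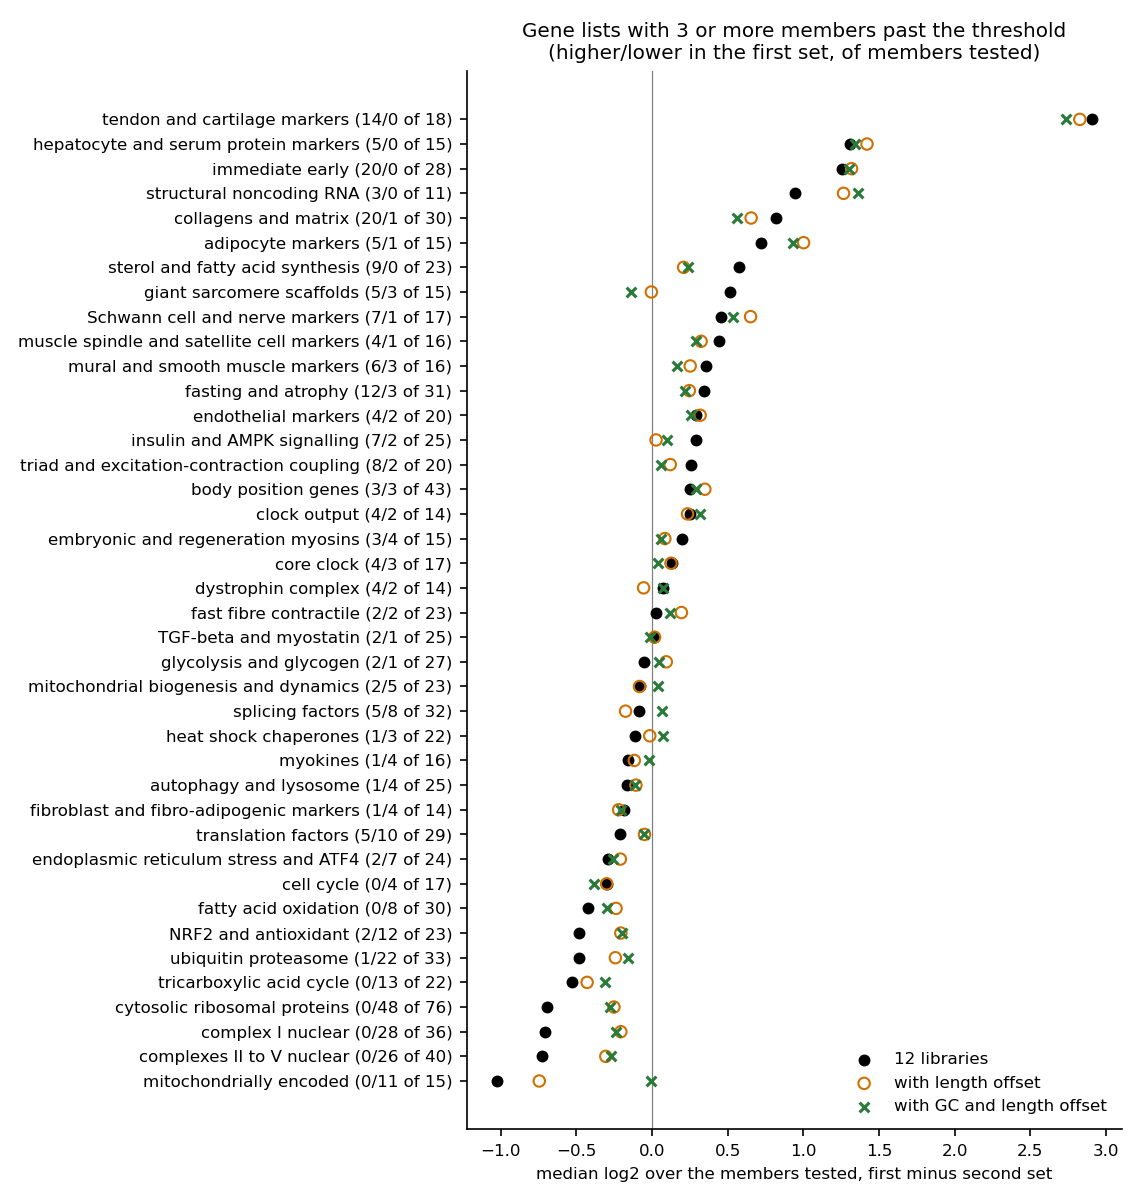
Median log2 difference, first minus second set, over the tested members of each gene list with at least 3 called members, in 12 libraries (black), with the length offset (open) and with the GC and length offset (crosses); the numbers give members higher, lower and tested. Tendon, serum protein, immediate early and collagen lists keep medians above 0.5 in all 3, while the mitochondrially encoded list goes from -1.03 to -0.01.

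Contractile genes of the fibre types were called less often than all genes, of which 14.9% were higher and 14.3% lower. Of 20 slow fibre genes 0 were higher and 1 lower, although the median was 0.64. Slow myosin Myh7 had 7.76, 1441 and 9728 CPM in the first and 253, 380 and 560 CPM in the second set. The first set spanned both sides of the second, with sedentary 1 the highest and exercise 3 the lowest, and the log2 difference was 2.42 ± 0.93 (edgeR adjusted p = 0.0667). The calcium pump of slow fibres Atp2a2 had the same spread (40.7 to 3811 against 203 to 377 CPM, 1.87 ± 0.68, edgeR adjusted p = 0.053), and Myl6b had 1.12 ± 0.47 (0.0936). Myoglobin Mb was the lower one, with 583, 1445 and 2483 against 1878, 3328 and 4643 CPM, -1.18 ± 0.35 and an edgeR adjusted p of 0.0234 that was lost without exercise 2 or sedentary 6. Without exercise 3 the number of higher slow genes was 4, and without sedentary 2 it was 2. Of 23 fast fibre genes 2 were higher (8.70%) and 2 lower (8.70%). The main fast myosin Myh4 had 41660, 92850 and 118600 against 38040, 46990 and 63740 CPM (0.83 ± 0.24, edgeR adjusted p = 0.0218), which was lost without exercise 3, 5 or 6 or sedentary 2 or 3. The kinase Mylk4 was higher (1.22 ± 0.35, edgeR adjusted p = 0.0205), and the short light chain Myl1 (-0.78 ± 0.22, 0.0177) and fast troponin Tnni2 (-1.01 ± 0.29, 0.0203, lost without sedentary 3) were lower. After the length offset 3 fast genes were higher and 0 lower. The number higher was 1 without exercise 5 or 6 or sedentary 2 or 3, 5 without sedentary 1 and 4 without sedentary 5, and 1 was lower without sedentary 3.

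Among membrane and scaffold genes, calls were found in both directions. The shares of all genes to set beside them are 14.9% higher and 14.3% lower. The shares lower of the triad and dystrophin complex lists were close to the latter or below it. With the length offset 6 triad, 1 dystrophin complex and 1 giant scaffold genes were higher, and 2, 2 and 3 were lower. With the GC and length offset these counts were 4, 1 and 0 higher, and 1, 2 and 4 lower. Of 20 triad genes 8 were higher and 2 lower, with 4 higher without sedentary 2 or 3 and 5 without exercise 5. The number lower was 1 with any library but exercise 4, exercise 5 and sedentary 6 left out. The calcium release channel Ryr1 had 4787, 6414 and 7726 CPM in the first and 2195, 3178 and 4077 CPM in the second set, without overlap (1.03 ± 0.17, edgeR adjusted p = 0.000915), while its anchor triadin, Trdn, had 34.2, 68.5 and 82.5 against 101, 168 and 204 CPM (-1.28 ± 0.22, 0.00113). The membrane tether Jph2 (0.91 ± 0.19, edgeR adjusted p = 0.00327) and the repair protein Dysf (0.54 ± 0.12, 0.00434) were higher. Of 14 dystrophin complex genes 4 were higher and 2 lower. Dystrophin itself, Dmd, had 12.2, 22.3 and 28.6 against 29.4, 58.9 and 71.2 CPM, without overlap (-1.29 ± 0.23, edgeR adjusted p = 0.00152, and -2 with the length offset). Its relative utrophin, Utrn, was higher (0.97 ± 0.16, edgeR adjusted p = 0.000948), but with the length offset its log2 difference was 0.33. Sarcospan Sspn (1.05 ± 0.20, edgeR adjusted p = 0.00191) and the nitric oxide synthase Nos1 (1.02 ± 0.28, 0.0145) were higher. Among 15 giant scaffolds 5 were higher and 3 lower, with 2 higher without exercise 6, 3 higher without exercise 2 to 5 or sedentary 3, and 1 lower without exercise 4 or sedentary 2. Titin Ttn (1.00 ± 0.29, edgeR adjusted p = 0.0203, lost without exercise 4 or 6 or sedentary 2) had a log2 difference of -0.13 with the length offset. Xirp2 was lower (-1.12 ± 0.29, edgeR adjusted p = 0.0117, and -1.77 with the length offset). Dmd, Trdn and Xirp2 therefore went against the length trend of the sets.

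Some embryonic and regeneration genes were called in each direction. Of 15 tested, 3 were higher and 4 lower, with a median of 0.20. With so few genes these counts are not far from the shares of all genes, 14.9% higher and 14.3% lower. Cardiac actin Actc1 had 67.1, 285 and 408 CPM in the first and 8.57, 43.9 and 63.5 CPM in the second set, apart by a narrow margin, with a log2 difference of 3.07 ± 0.53 (edgeR adjusted p = 0.00115). The myogenic factors Myf6 (48.0, 76.7 and 82.9 against 112, 174 and 215 CPM, -1.24 ± 0.19, edgeR adjusted p = 0.000595) and Myf5 (-1.6 ± 0.34, 0.00362) lay below without overlap, as did Myod1, described with the clock outputs. The osteocrin peptide Ostn, a hormone secreted by muscle, had 8.98, 20.8 and 43.0 against 56.2, 77.2 and 188 CPM (-1.94 ± 0.39, edgeR adjusted p = 0.00272). It was 1 of 4 lower myokines of 16, with Il15 (-1.30 ± 0.18, edgeR adjusted p = 0.000351), the vascular growth factor Vegfb (-0.90 ± 0.17, 0.00215) and Angptl4. The myokine count too rests on few genes and is to be set beside 14.3% lower of all genes.

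Further genes had some of the largest differences outside these programmes. The actin-binding protein Ablim1 had 20.1, 48.1 and 319 CPM in the first and 5.44, 9.22 and 15.1 CPM in the second set (3.11 ± 0.63, edgeR adjusted p = 0.00305), highest in sedentary 1 and 3. Larp1, which binds mRNAs of ribosomal proteins, had 208, 254 and 293 against 16.1, 50.6 and 73.6 CPM (2.41 ± 0.28, edgeR adjusted p = 9.7e-05), opposite in sign to the ribosomal protein genes. The kinase Hipk2 had 70.2, 125 and 183 against 9.45, 23.6 and 45.3 CPM (2.27 ± 0.35, edgeR adjusted p = 0.00059). The prostaglandin synthase and cochaperone Ptges3 was among the most separate lower genes, at 9.88, 11.4 and 15.6 against 37.1, 42.9 and 48.4 CPM (-1.82 ± 0.15, edgeR adjusted p = 1.3e-05). None of these 4 overlapped between the sets. Hgs (-3.29 ± 0.24, edgeR adjusted p = 9.76e-06), Ndufb1-ps (-1.84 ± 0.20, 7.74e-05) and Rps27a-ps2 (-1.83 ± 0.21, 9.1e-05) were also lower, but Hgs has overlapping annotations under 1 symbol and the other two have near-identical copies, so their counts are uncertain. Of 11 structural noncoding RNAs 3 were higher (27.3%) and 0 lower, beside 14.9% and 14.3% of all genes. The higher ones were the nuclear RNAs Malat1 (1.58 ± 0.31, edgeR adjusted p = 0.00241) and Neat1 (1.23 ± 0.30, 0.00766) and the imprinted Meg3 (1.96 ± 0.45, 0.00596). Neat1 had a log2 difference of 0.35 with the length offset.

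Genes that mark body position gave few calls, 6.98% higher and 6.98% lower beside 14.9% and 14.3% of all genes. Of 43 tested, 3 were higher and 3 lower: Hoxa4 (-1.04 ± 0.21, edgeR adjusted p = 0.00297), the limb muscle factor Meox2 (-1.32 ± 0.27, 0.00331) and Zic1 (-2.36 ± 0.65, 0.0163) were lower, and Hoxc4 was higher (0.68 ± 0.18, 0.0117). Without sedentary 6 the number higher was 5. Only Meox2 lay apart, at 1.08, 2.30 and 3.45 against 3.74, 4.48 and 7.91 CPM. Y-linked transcripts were present in all 12 libraries. Uty was lower (-1.36 ± 0.27, edgeR adjusted p = 0.00284), as was Ddx3y (-0.94 ± 0.24, 0.012), while Eif2s3y (-0.22 ± 0.18, 0.378) and Kdm5d (-0.13 ± 0.21, 0.681) did not pass the threshold.

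**Figure D5:**
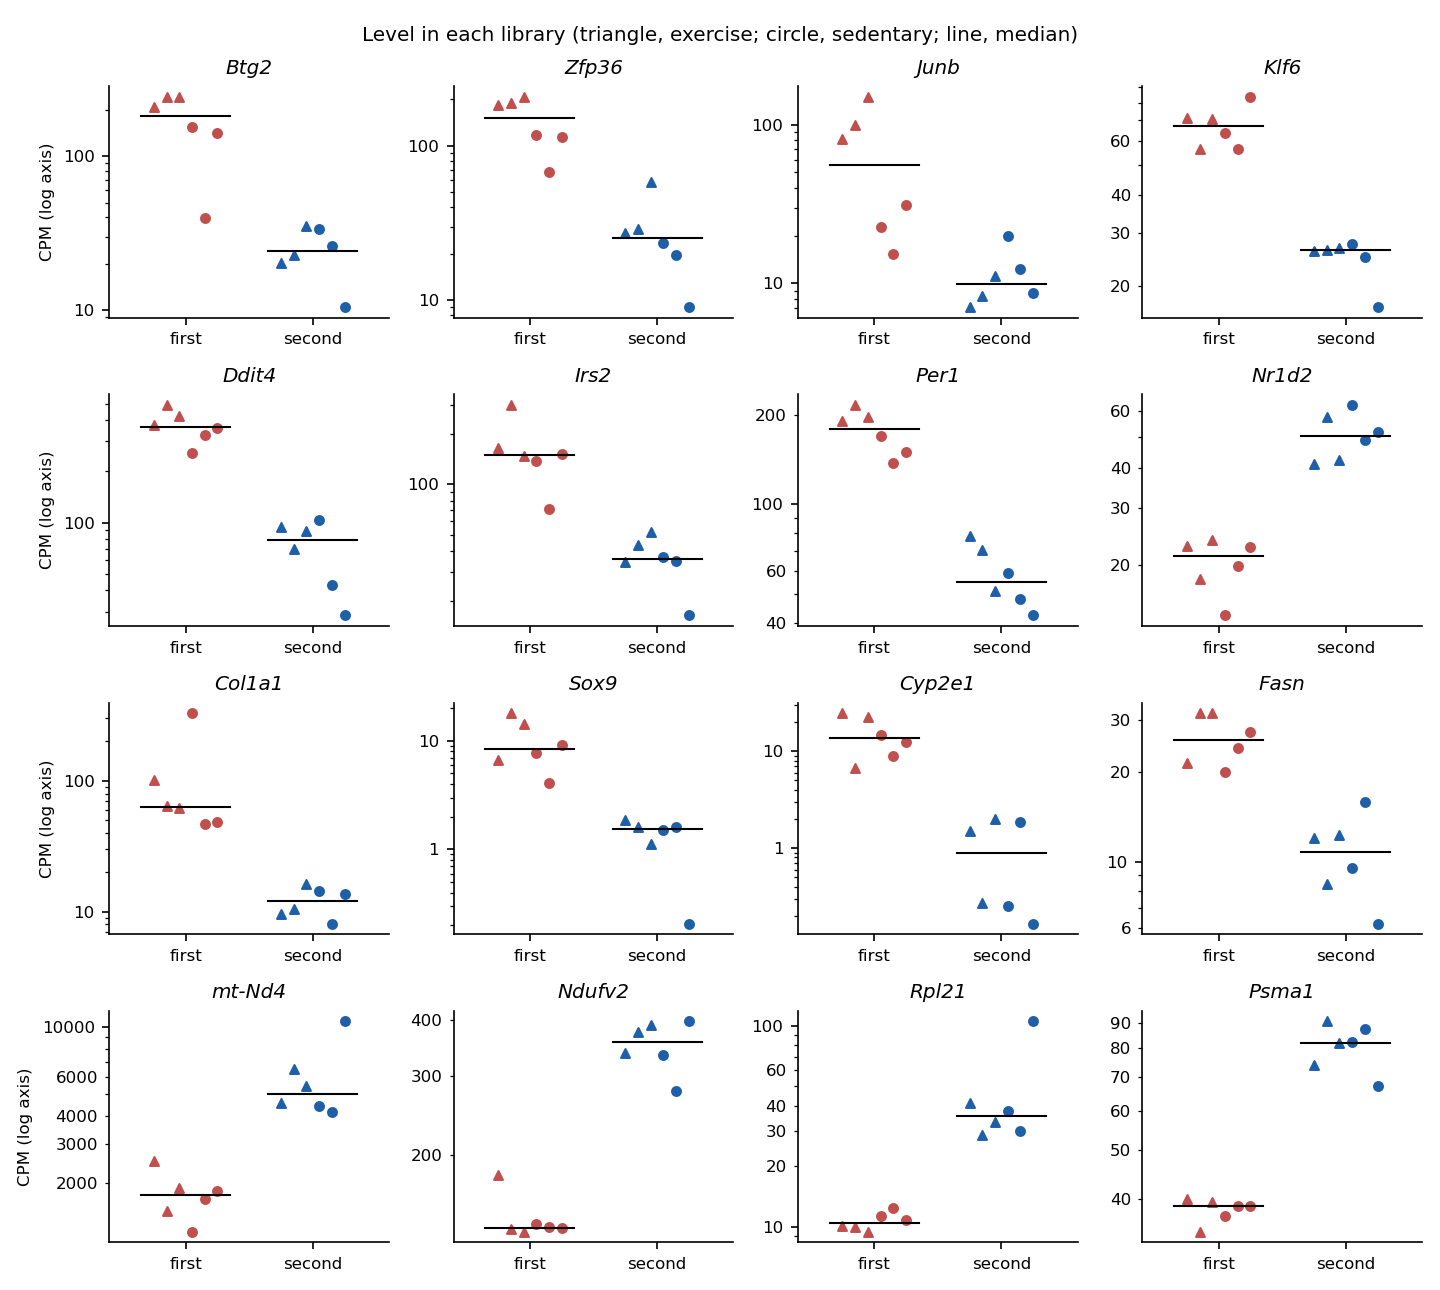
CPM (log axis) of 16 named genes in each first-set (red) and second-set (blue) library; triangles are exercise and circles sedentary libraries, and lines are medians. All but Junb are apart between the sets, with Junb high in the 3 first-set exercise libraries.

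The set difference was next compared between sedentary and exercise mice. No gene had a set difference that depended on exercise at an adjusted p under 0.05 in edgeR's quasi-likelihood test (0 of 17072, 0.0%), with 814 genes at an unadjusted p under 0.05 and 6 called by DESeq2. The smallest unadjusted p among increases belonged to Junb. Junb had 81.0, 99.8 and 150 CPM in first-set exercise libraries, 15.3 to 31.1 CPM in first-set sedentary, 7.07 to 11.2 CPM in second-set exercise and 8.68 to 19.7 CPM in second-set sedentary libraries. Its interaction was 2.88 ± 0.50 on the log2 scale (edgeR adjusted p = 0.967). The orphan nuclear receptor Nr4a3 had 10.4 to 21.5 and 2.41 to 4.37 CPM in exercise and sedentary libraries of the first set, and 2.53 to 6.85 and 5.61 to 24.4 CPM in those of the second (interaction 3.55 ± 0.72, edgeR adjusted p = 0.967). Its order was reversed between the sets, without passing the threshold. The unannotated transcript Gm15564 was at 13.5, 31.8 and 34.0 CPM in the 3 second-set exercise libraries and at most 0.135 CPM in the other 9.

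Exercise itself, with the set as a term, gave 0 called genes (0.0%), with 904 at an unadjusted p under 0.05 and 15 called by DESeq2. The lowest p was that of Il15, the muscle cytokine interleukin 15, which had 2.30 to 3.44 CPM in exercise and 1.22 to 1.30 CPM in sedentary libraries of the first set, and 5.66 to 10.2 against 2.40 to 3.31 CPM in the second. Exercise libraries lay above sedentary ones within each set, although the sets differed in level, with an exercise difference of 1.36 ± 0.18 (edgeR adjusted p = 0.0871). The arginine deiminase Padi2 (0.82 ± 0.16, edgeR adjusted p = 0.83) and the small GTPase Arl4d (0.80 ± 0.16, 0.83) had the next smallest p among increases. Arl4d was also 1.67 ± 0.16 higher on the log2 scale in the first set (edgeR adjusted p = 4.34e-05).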

How the data were processed

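The deposited table holds whole-number read counts per gene for each library. Per the submitters' processing notes, the authors used Trimmomatic 0.30, HISAT2 2.0.1 and HTSeq 0.6.1 with GRCm38. The strand setting of the counting is not given in the sources used here, and the extraction and NEBNext library kits come per the labels' protocols. Counts of 12 wild-type libraries were analysed in R 4.3.3 with edgeR 4.0.16 (TMM, filterByExpr over 4 combinations of set and group, robust quasi-likelihood fit, prior count 2). The main fit had the set and exercise as terms, with Benjamini-Hochberg adjustment and a threshold of 0.05, and the interaction was fitted separately. Alternatives used DESeq2 1.42.0, limma 3.58.1 (voom), other scalings and filters, each library left out, and offsets for transcript length and GC content (GENCODE M21). Of 22798 symbols, 22711 were found once in that annotation. The offsets and the length slope were chosen after seeing the data.

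The members and gene lists were chosen with earlier results of these data known. Named genes were the 10 with the largest log2 difference in each direction among called genes with a mean of at least 3 log2 CPM and sets that did not overlap, up to 4 members of each list with the smallest p, and the 3 smallest p-values in each direction of the interaction and of exercise. A few genes that meet these rules are not reported here. Library measures were compared by exact permutation within groups. Because the boundary was drawn with earlier results known, their p-values are no independent support for a difference between the sets. Nothing in the labels ties each library to its own mouse, and p-values therefore rest on the spread among these 12 samples, which may be technical. Of the values from 1 to 15 in each library, those equal to 4, 8 or 12 made up 43.4% ± 1.37 (SD, n = 6) in the first and 47.6% ± 1.72 in the second set (exact permutation p = 0.005, adjusted p = 0.01). The cause of this excess was not tested, and counts divided by 4 gave 4969 differing genes against 4984. On simulated counts of the set comparison (16566 genes), 93 of 100 genes changed by 2 on the log2 scale and 56 of 100 changed by 1 were recovered, with 8 false calls. With a simulated length trend (16415 genes) there were 1040 false calls without and 5 with the length offset. That trend was alike in every first-set library and steeper than the measured difference in slope of 0.928. The measured slopes also varied between libraries (SD 0.0923 and 0.366), so these numbers do not carry over to the data. Promoters came from RefSeq, and plots were drawn with Python 3.11.15.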

Additional observations from a re-analysis of the deposited data

Results flagged for a closer look

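In 400 groups of 6 libraries, 48 had a lowest or highest library standing away from the others by more than Dixon's limit of 0.625. Chance flags about 1 in 20 groups, and many of these genes share the same library, so the flags are not independent. No explanation was weighed.

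Sedentary 6 of the second set accounted for most. It was the highest of its set for Rpl17 (93.43 CPM), Rpl21 (105.4), Rps6 (391.2), Rps12 (190.2), Eef1b2 (160.2), Ndufb1-ps (241.1), Tnni2 (19830), Atf4 (288.1), B2m (116.2), Ly6a (89.82), Mustn1 (171.3) and Agrn (20.58 CPM). It was the lowest for Larp1 (16.1 CPM), Jph2 (228.5), Sspn (24.43), Hk2 (195.2), Irs2 (16.41), Bnip3 (201.3), Klf6 (17.1), Acvr1b (19.28), Pcna (10.82) and Sox9 (0.2077 CPM). Its 20 most abundant genes held 48.48% and its ribosomal protein genes 2.184% of counts, and its slope on transcript length was -1.172 log2 per 10-fold length.

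Sedentary 1 of the first set was the highest for Col1a2 (442.7 CPM), Per3 (50.92) and Hic1 (5.813) and the lowest for Myl1 (2601), Mylk4 (1074), Myod1 (4.408), Ppp1r3a (8.83) and Acvr1b (57.06 CPM). Sedentary 2 of the first set was the lowest for Btg2 (39.52 CPM) and Insr (20.95) and the highest for Myf5 (0.394) and Gm26981 (0.4796 CPM), and sedentary 3 was the lowest for Rab36 (0.1126 CPM). Exercise 1 of the first set was the highest for Ndufv2 (180.1 CPM), Uqcrfs1 (287.9) and Atp5j (159.8 CPM) and for the mitochondrial share (7.869% of counts). Exercise 2 was the highest for Plin4 (875.8 CPM), and exercise 3 the lowest for Mpc1 (24.78) and Hnrnpm (31.54 CPM). In the second set, exercise 4 was the highest for Hspb8 (694.1 CPM) and the lowest for Lss (1.527 CPM), and sedentary 5 was the highest for Apoa1 (0.449 CPM).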

How the results depend on the processing

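The count of genes differing between the sets was 4984 and lay between 3518 and 6112 under the other settings, apart from sedentary libraries alone, which gave 150 (65 higher, 85 lower). DESeq2 gave 6112, the length offset 4048 (3159 of them shared with the 4984) and the GC and length offset 3710 (2814 shared), of which 1623 were lower. Leaving out 1 library gave 4192 to 5736 genes, 2128 to 2933 higher and 2023 to 2803 lower. Interaction calls were 6 with DESeq2, 1 without sedentary 1 and 6, and 0 to 1 with 1 library left out. Exercise calls were 15 with DESeq2, 1 each with all 15 libraries, with counts divided by 4 and without sedentary 1 and 6, and 0 to 1 with 1 library left out. The GC slope differed by 0.2212 log2 per 10 points between the sets (adjusted p = 0.064), which passed the threshold over all arrangements of the libraries (0.2212) and ran from 0.1657 to 0.2546 with 1 library left out. The cause was not tested.

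Replicate numbers did not pair the libraries (correlations of same-numbered deviations from -0.061 to 0.146), and limma-voom with a replicate block gave 5140 genes, 4714 of them shared. Of 181 named genes 166 were called, and 158 of these kept their direction in every setting run. Directions reversed with the length offset for Ttn (-0.13), Pgam2 (0.11), Hspe1 (0.074) and Pf4 (0.059). They reversed with the GC and length offset for mt-Nd3 (0.017), Ttn (-0.27), Cox7c (0.27), Pgam2 (0.084), Bnip3 (0.086), Lamp2 (0.15), Hspe1 (0.14), Acaca (-0.031), B2m (0.20), Eif2s3y (0.52) and Pf4 (0.023). The GC offset alone reversed Lamp2 (0.20), Eif2s3y (0.50) and Kdm5d (0.014), Eif2s3y was 0.17 in exercise libraries alone, and Kdm5d was 0.0092 without sedentary 4 and ran down to -0.24 without sedentary 6. Depth of 50928458 to 77628546 counts did not limit the abundant genes, while genes under 1 CPM rest on few libraries.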
